A study of Mus musculus with 6 samples.

Results

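The miR-532 cluster is a group of miRNA hairpins that lie within 1 intron of Clcn5 on the mouse X chromosome. Its members were chosen by name, as every row of the miRNA table for miR-188, miR-362, miR-500a, miR-500b, miR-501, miR-502, miR-532 or miR-660, in every arm listed. There were 15 such rows among 1983 rows in all. A row was described when it was above the floor in at least 3 of the 6 libraries. The floor is the lowest value the table holds, 10 reads per 10000000 reads of a library, or 3.32 on the log2 scale. This left 5 rows, which were miR-532-5p, miR-532-3p, miR-501-3p, miR-188-5p and miR-188-3p. Both arms of miR-660 were at the floor in all 6 libraries. The rows carry human names and miR-660 was matched to no gene in the mouse table, so these values do not bear on its place in the cluster. The cluster is called here after its leading row, miR-532.

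Small RNAs were sequenced from epididymal white adipose tissue (WAT) of male C57BL6/J mice, with 1 library per mouse. The 3 wild type (Wt) mice were compared with 3 transgenic (Agt Tg) mice in which angiotensinogen, the precursor of angiotensin II, was overexpressed in adipose tissue under the aP2 promoter. This promoter is known to be active in macrophages as well as in adipocytes. The sample labels give a chow diet for both genotypes, whereas the methods of the study give a low fat diet, and no age of the mice was used here. The messenger RNA of angiotensinogen is not measured by small RNA libraries, so the genotype labels were not checked here. The comparison asks which miRNAs of WAT differ in level when adipose angiotensinogen is overexpressed.

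The library totals, worked out from the values, were 7480766, 7838874 and 9821467 reads for the 3 Wt mice in the order of their replicate numbers. For the 3 Agt Tg mice they were 10367417, 6387766 and 10562634 reads. At these depths the floor stood for 6.39 to 10.6 reads, and a level below it was not detectable. Wt replicate 2 stood apart from the other libraries. In it, 18 rows of the table were more than 2 log2 units above every other library, against 0 rows in each of the other 5, and its mean Spearman rho with the others was 0.926, where the other 5 libraries had 0.959 to 0.965. Genotype differences of the cluster are therefore given with and without Wt replicate 2.

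Clcn5 encodes a chloride and proton exchanger of endosomes, and miRNAs that lie in an intron on the strand of their host gene can be cut from the host's transcript. Each hairpin can release a mature miRNA from its 5′ side (the 5p arm) and from its 3′ side (the 3p arm). A mature miRNA pairs with messenger RNAs mainly through its seed, bases 2 to 8 from its 5′ end, so that miRNAs with the same seed can share targets.

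The mature mouse sequences below are those of the described rows and of miR-500-3p, which is shown because it shares a seed with miR-501-3p. They are RefSeq sequences of GRCm38.p6, written 5′ to 3′, with the seed in capitals. For the cluster, 9 mature sequences from 5 mouse genes were matched by number and arm, and miR-532-5p and miR-660 are given here by name only.
miR-532-3p: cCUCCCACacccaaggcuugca
miR-188-3p: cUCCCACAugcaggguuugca
miR-188-5p: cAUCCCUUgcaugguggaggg
miR-501-3p: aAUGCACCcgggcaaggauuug
miR-500-3p: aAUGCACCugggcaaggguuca
The seed AUGCACC was found in 2 of the 1679 mature mouse miRNAs of the RefSeq table, miR-501-3p and miR-500-3p. These 2 sequences of 22 bases differ at 4 positions, counted from 1 at the 5′ end of miR-501-3p, as C9U, A18G, U21C and G22A. miR-532-3p and miR-188-3p have different seeds but share the 8 bases CUCCCACA, which start at base 2 of miR-532-3p and at base 1 of miR-188-3p. Another seed, AUCCUUG, was shared by miR-362-5p and miR-500-5p, and the rows of miR-362-5p and miR-500a-5p were left out by the rule on the floor. Human names are used for every row of the table, and whether mouse reads that differ from the human sequence were counted in a row was not tested.

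All 5 matched hairpins lie on the minus strand of the X chromosome, the strand of Clcn5, which spans 7153810 to 7319358 (GRCm38, GENCODE M21). From the 5′ end of the host they are Mir532 (7248402 to 7248497), Mir188 (7247989 to 7248056), Mir362 (7241982 to 7242046), Mir501 (7241243 to 7241351) and Mir500 (7237683 to 7237774). Together they span 10815 bases within an intron of 103648 bases (7213011 to 7316658), and 3 of the 5 annotated Clcn5 transcripts extend across them, with 0 exons of Clcn5 overlapped. Mir532 and Mir188 are 345 bases apart and Mir362 and Mir501 are 630 bases apart, with 5942 bases between these pairs and 3468 bases from Mir501 to Mir500. miR-502 and miR-660 were matched to no gene in the mouse table.

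**Figure D1:**
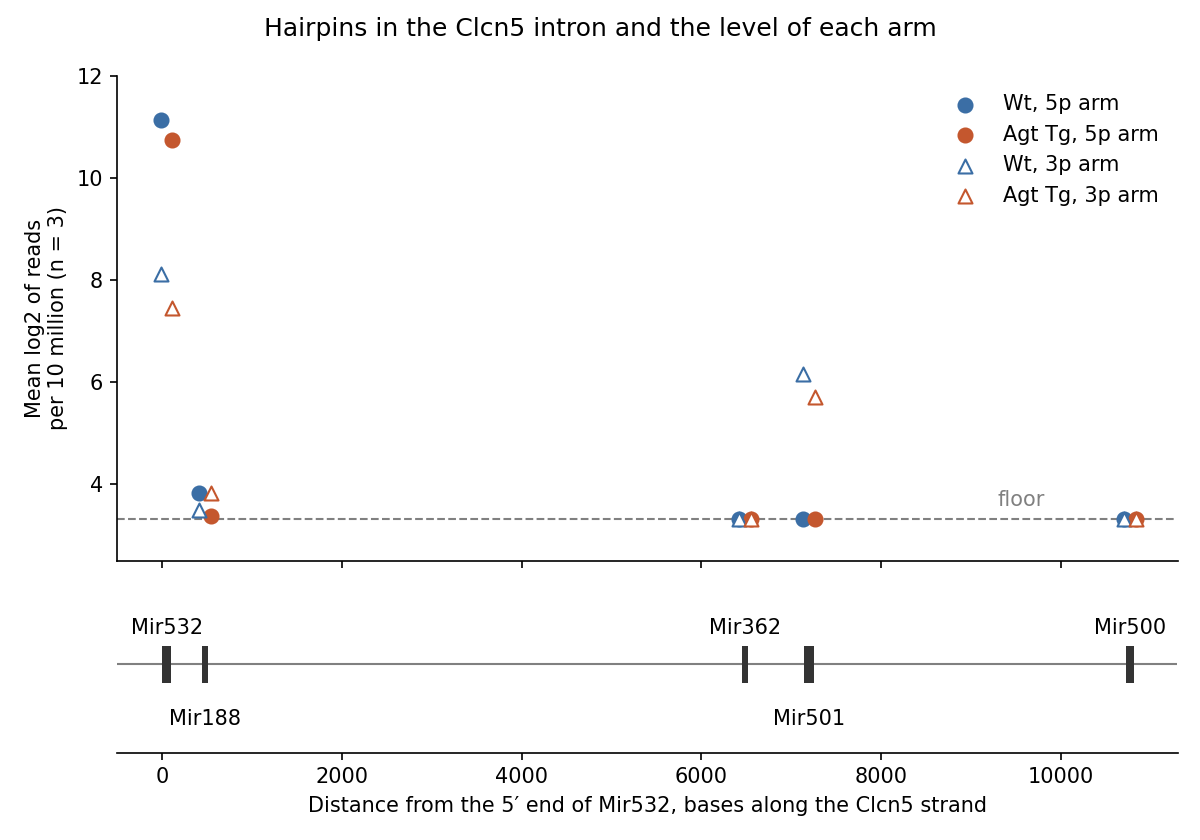
Map of the 5 hairpins by distance in bases from the 5′ end of Mir532 (lower panel), and the mean log2 level of each arm in Wt and Agt Tg mice, n = 3 each (upper panel, filled circles 5p, open triangles 3p, dashed line the floor, 3.32). Both arms of Mir532 stand highest, and the arms of its close neighbour Mir188 lie near the floor. Of the 3 hairpins further along only the 3p arm of Mir501 is clearly above it. The levels are those of human-named rows, with miR-500a drawn for Mir500. Whether mouse reads that differ from the human sequence were counted was not tested, so a level at the floor need not mean that a hairpin is silent.

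miR-532-5p was the most abundant member. Its log2 levels were 11.27, 10.82 and 11.28 in Wt replicates 1, 2 and 3 and 10.93, 10.71 and 10.57 in Agt Tg replicates 1, 2 and 3. It rested on 1069 to 2442 reads per library and ranked between 84 and 100 among all rows of a library. Wt replicates 1 and 3 were the highest, Wt replicate 2 was below Agt Tg replicate 1, and the groups overlapped.

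miR-532-3p, the other arm of the same hairpin, had log2 levels of 8.17, 7.71 and 8.48 in Wt replicates 1, 2 and 3 and of 7.66, 7.62 and 7.09 in Agt Tg replicates 1, 2 and 3. It was the only described member whose groups did not overlap, with every Wt library above every Agt Tg library. The gap between the groups was small beside the counting error, since the lowest Wt library (replicate 2) had 209.2 reads per 10000000 (exact Poisson 95% interval 178 to 244) and the highest Agt Tg library (replicate 1) had 202 (175 to 231). These intervals cover counting error only.

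miR-501-3p was the third row found in every library. Its log2 levels were 6.44, 5.52 and 6.50 in Wt replicates 1, 2 and 3 and 6.20, 5.50 and 5.41 in Agt Tg replicates 1, 2 and 3, on 29 to 89 reads. Wt replicates 1 and 3 and Agt Tg replicate 1 were above 6 and the other 3 libraries lay between 5.41 and 5.52, so the groups overlapped. The order of the 6 libraries was the same as for miR-532-5p.

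miR-188 was near the floor in both arms. miR-188-5p was above the floor in 3 of 3 Wt libraries, with log2 levels of 4.51, 3.52 and 3.49 in replicates 1, 2 and 3, and in 1 of 3 Agt Tg libraries, replicate 3, with 3.51. miR-188-3p was above the floor in 1 Wt library, replicate 3, with 3.83, and in Agt Tg replicates 1 and 3, with 3.85 and 4.31. These values rested on 9 to 21 reads, and the exact Poisson 95% interval of the highest, 21 reads, was 13.0 to 32.1. At this depth the arms of miR-188 could not be ordered.

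Of the 10 rows left out by the rule, 9 were at the floor in all 6 libraries, namely miR-362-3p, miR-500a-3p, miR-500a-5p, miR-500b, miR-501-5p, miR-502-3p, miR-502-5p, miR-660-3p and miR-660-5p. The last, miR-362-5p, was above it in 1 library, Wt replicate 2, with 10.2 reads per 10000000. Just inside the rule stood miR-188-3p, with 3 libraries above the floor.

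**Figure D2:**
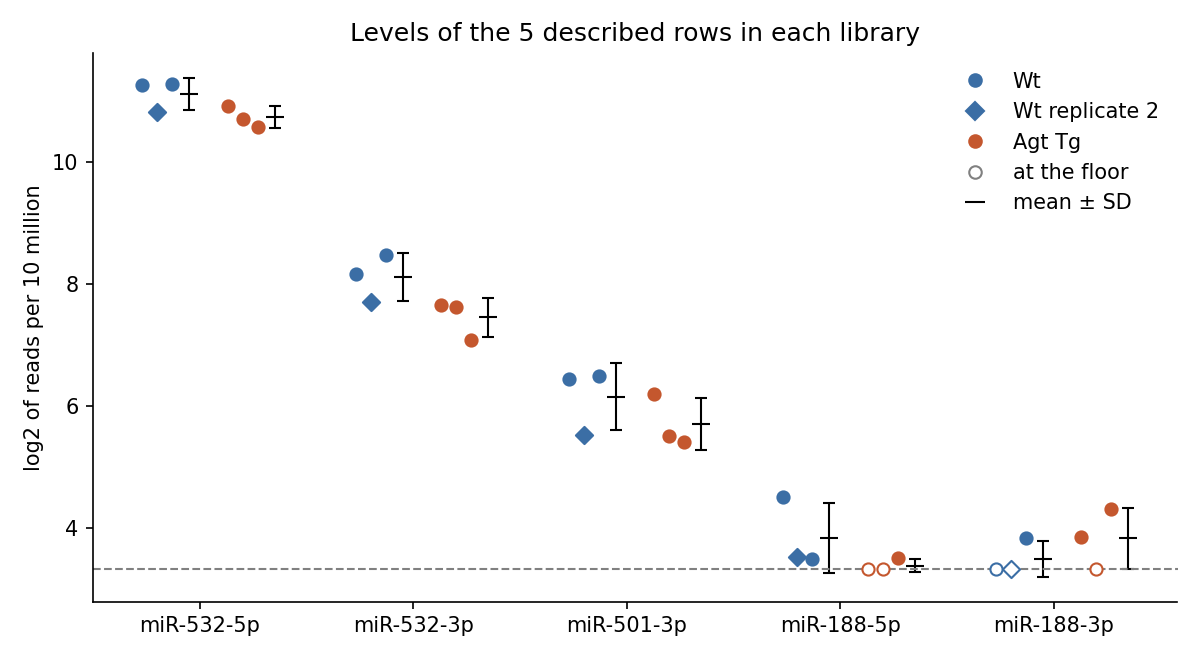
Log2 of reads per 10000000 of the 5 described rows in each of 3 Wt (blue, replicate 2 as a diamond) and 3 Agt Tg libraries (orange), with the mean and SD in black, open symbols at the floor and a dashed line at 3.32. miR-532-3p is the row whose groups do not overlap, from 7.71 to 8.48 in Wt and from 7.09 to 7.66 in Agt Tg libraries.

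The order of the levels was the same in all 6 libraries for the 3 rows above the floor throughout, with miR-532-5p first, miR-532-3p next and miR-501-3p after it. miR-532-5p was 26.6 to 39.5 times the level of miR-501-3p, and miR-532-3p was 2.75 to 4.56 times that level. Within the summed reads of the 5 rows, miR-532-5p made up 84.0% to 87.9% in every library. Differences of this size between rows are larger than the spread between mice, but they compare miRNAs of different sequence and are a description of the reads.

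miR-532-5p exceeded miR-532-3p in every library. The log2 balance of the arms, 5p minus 3p within a library, was 3.10, 3.12 and 2.80 in Wt replicates 1, 2 and 3 and 3.27, 3.08 and 3.48 in Agt Tg replicates 1, 2 and 3. Within a genotype the SD of the balance was 0.18 in Wt and 0.20 in Agt Tg mice (n = 3 each). The genotype means differed by 0.28, and the values of the groups overlapped (two-sided exact permutation test, p = 0.3, where 3 mice against 3 cannot give a p below 0.1). For miR-188 the difference of the balance was −0.79 (two-sided exact permutation test, p = 0.2), and it rests on values at the floor in 4 of the 6 libraries. Without Wt replicate 2 the difference of the balance was 0.33 for miR-532 and −0.86 for miR-188.

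In the comparison of genotypes, limma was fitted to the log2 values of all 329 rows above the floor in at least 3 libraries, with Benjamini-Hochberg adjustment over the 329. None of the 5 members passed at an adjusted p under 0.05, as was true of 0 (0%) of all 329 rows. At an unadjusted p of at most 0.05, limma called 30 of the 329 rows (9.12%), of which 15 were lower in Agt Tg mice (4.56%), and 0 of the 5 members, while limma-voom called 32 rows and 0 members. These p-values weigh the difference between genotypes against the spread among mice of the same genotype. That spread was estimated in part from all 329 rows.

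miR-532-3p had the lowest p of the members (limma unadjusted p = 0.0737). Wt mice had a mean log2 level of 8.12 ± 0.39 (SD, n = 3) and Agt Tg mice one of 7.46 ± 0.32 (SD, n = 3). The log2 fold change was −0.66 (SE 0.32, limma 95% interval −1.41 to 0.08, adjusted p = 0.531), which puts the Agt Tg level at 63.1% of Wt. Among the 329 rows, 35 (10.6%) had every Agt Tg library below every Wt library, and 1 of the 5 members did. In bulk tissue, fewer cells of a type and less RNA per cell cannot be told apart.

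For miR-532-5p the mean log2 level of Wt mice was 11.12 ± 0.26 (SD, n = 3) and that of Agt Tg mice 10.74 ± 0.18 (SD, n = 3). Its log2 fold change was −0.39 (SE 0.22, limma 95% interval −0.92 to 0.14, adjusted p = 0.553), or 76.5% of the Wt level. For miR-501-3p the Wt mean was 6.15 ± 0.55 (SD, n = 3) and the Agt Tg mean 5.70 ± 0.43 (SD, n = 3) on the log2 scale. The log2 fold change of miR-501-3p was −0.45 (SE 0.39, limma 95% interval −1.38 to 0.48, adjusted p = 0.665). The intervals of both rows include no change and also levels in Agt Tg mice well below those in Wt mice.

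The 2 arms of miR-188 had log2 fold changes of opposite sign, and the 95% interval of each included 0. That of miR-188-5p was −0.45 (limma 95% interval −1.29 to 0.39, adjusted p = 0.616) and that of miR-188-3p was 0.34 (limma 95% interval −0.50 to 1.17, adjusted p = 0.693). Values at the floor enter both, so these differences are limited by the floor.

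Across the whole table the log2 fold changes were themselves shifted below 0. Their median over the 329 rows was −0.19, and 67.5% of the rows were below 0, against a median of −0.45 and 4 of 5 rows below 0 in the cluster. With scaling by trimmed means of M values (TMM) the median of all rows moved to −0.06, and of the 32 rows then called 65.6% were higher in Agt Tg mice, against 50% of the 30 rows without that scaling. Relative to the median of all rows, the log2 fold change was −0.48 for miR-532-3p, −0.20 for miR-532-5p and −0.26 for miR-501-3p. With TMM scaling miR-532-3p was at −0.54, miR-532-5p at −0.26 and miR-501-3p at −0.32, so each kept its sign.

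Without Wt replicate 2 the differences of the 3 rows above the floor in every library were larger. The log2 fold change of miR-532-3p was then −0.87 (limma 95% interval −1.57 to −0.17, unadjusted p = 0.0226, adjusted p = 0.299) and that of miR-532-5p was −0.54 (limma 95% interval −0.99 to −0.09, unadjusted p = 0.0261, adjusted p = 0.299). That of miR-501-3p was −0.77 (limma 95% interval −1.59 to 0.06, adjusted p = 0.354). Near the floor, miR-188-5p was at −0.61 and miR-188-3p at 0.25. In that fit 2 of the 5 members were at an unadjusted p of at most 0.05, both lower in Agt Tg mice, where 30 of the 329 rows (9.12%) were lower at that limit, and 0 rows had an adjusted p under 0.05. Thus whether these 2 rows passed the unadjusted limit depended on 1 library.

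**Figure D3:**
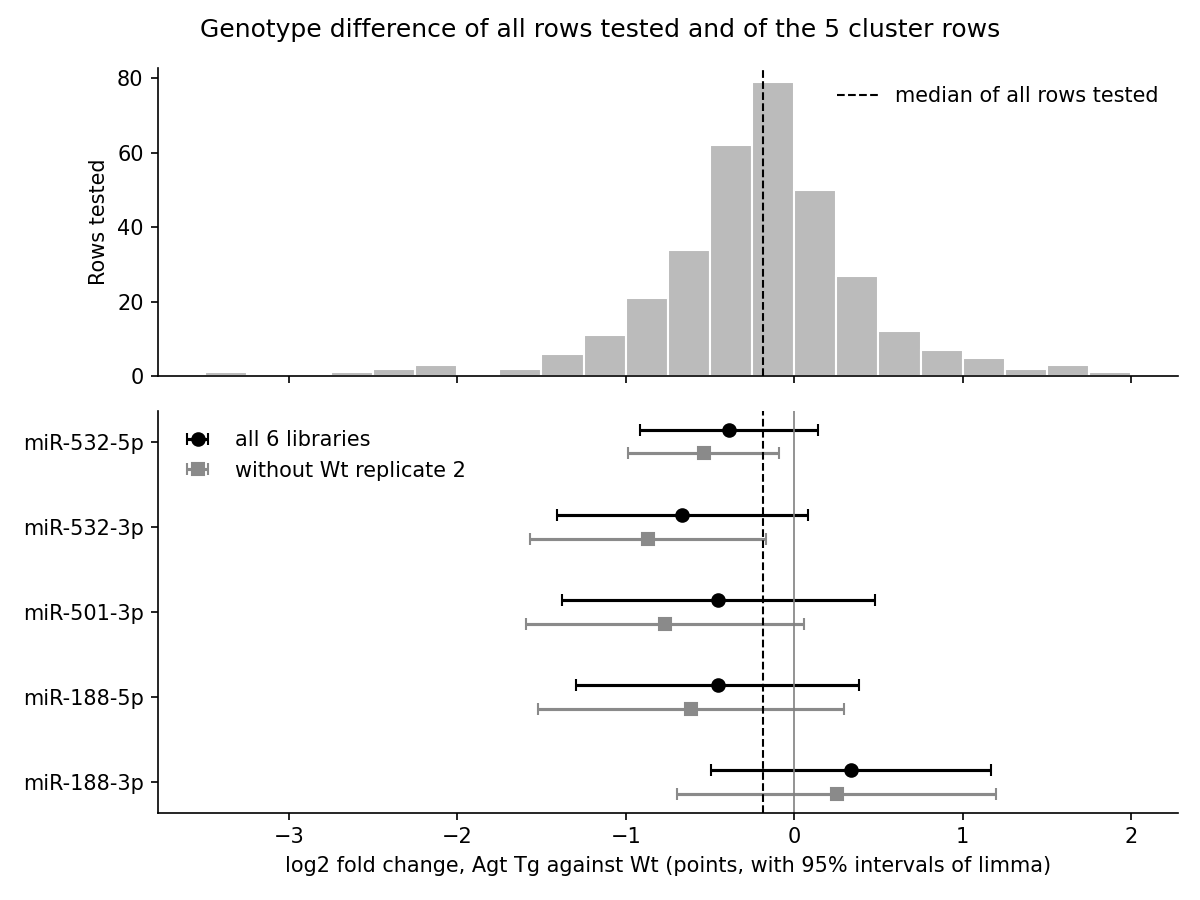
Upper panel, number of tested rows by log2 fold change, Agt Tg against Wt, for all 329 rows, and lower panel, the log2 fold change of the 5 cluster rows with limma 95% intervals, from all 6 libraries (black) and without Wt replicate 2 (grey). The dashed line is the median of all rows, −0.19, and with all 6 libraries each of the 5 intervals includes 0.

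The summed level of the 5 rows was 2869, 2079 and 2959 reads per 10000000 in Wt replicates 1, 2 and 3 and 2241, 1916 and 1735 in Agt Tg replicates 1, 2 and 3. Wt mice had a mean of 2636 ± 484 (SD, n = 3) and Agt Tg mice one of 1964 ± 256 (SD, n = 3). The groups overlapped through Wt replicate 2, which was below Agt Tg replicate 1. As miR-532-5p made up most of these reads, the sum followed that row and is given with no test. The mean of log2 summed levels was lower in Agt Tg mice, with a difference of −0.41, which was −0.58 without Wt replicate 2.

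Markers of other cell types also differed between libraries. The haematopoietic list (miR-142-3p, miR-142-5p, miR-150-5p, miR-155-5p and miR-223-3p) had 4 of 5 rows above the floor, with miR-155-5p at the floor everywhere and miR-150-5p the most abundant. Its summed level did not overlap between genotypes, with 40640.2, 41780.2 and 42067 reads per 10000000 in Wt replicates 1, 2 and 3 and 38598, 30975 and 28282 in Agt Tg replicates 1, 2 and 3. This was the same direction as that of miR-532-3p, and the part of blood-derived cells in the result was not tested.

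The epithelial list had 6 of 7 rows above the floor, with miR-429 at the floor. Its most abundant row was miR-200b-3p by mean log2 level and in 5 of the 6 libraries, but miR-375 in Wt replicate 2, with log2 levels of 15.10 for miR-375 and 13.12 for miR-200b-3p. The summed level of the list was 369, 50403 and 242 reads per 10000000 in Wt replicates 1, 2 and 3 and 226, 166 and 231 in Agt Tg replicates 1, 2 and 3, so that it too did not overlap. The list for epididymis and testis, led by miR-34c-5p, had 3 of 7 rows above the floor (miR-34b-5p, miR-34c-3p and both arms of miR-449b were at it), with 1357, 88164 and 867 reads per 10000000 in Wt replicates 1, 2 and 3 and 870 to 1436 in Agt Tg libraries. Both lists were far higher in Wt replicate 2 than in any other library. As a share of listed reads without the rows of these 2 lists, the difference of the log2 summed level of the cluster was −0.37, against −0.36 as a share of all listed reads.

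Of the adipocyte list, 5 of 6 rows were above the floor and miR-193b-3p was at it everywhere, with miR-143-3p the most abundant. The sum of the list ran from 465031 to 509133 reads per 10000000 in Wt and from 487901 to 661054 in Agt Tg libraries. It rested mostly on miR-143-3p. The log2 level of this row was 18.49 in Wt replicate 1 and 19.12 in Agt Tg replicate 3, where the log2 of the sum was 18.83 and 19.33. Whether the list marks adipocytes in these libraries was not tested. The endothelial list, led by miR-126-5p, had 2 of 2 rows above the floor and 70782 to 118266 reads per 10000000, and the erythroid list, led by miR-486-5p, had 4 of 4 rows and 50938 to 207942. The muscle list, led by miR-133a, had 2 of 5 rows above the floor (miR-133b, miR-206 and miR-208b were not) and 485 to 1699 reads per 10000000, and the liver miRNA miR-122-5p had 74.9 to 145. The genotypes overlapped in each of these 5 lists.

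Other miRNAs encoded on the X chromosome were taken as a list of 50 rows, fixed by number, of which 19 were above the floor in at least 3 libraries. At an unadjusted p of at most 0.05, limma called 1 of the 19, miR-652-3p, beside 9.12% of all 329 rows. Its log2 fold change was −0.81 (SE 0.31, limma adjusted p = 0.505). The median log2 fold change of the 19 was −0.36, and 14 of them were below 0, beside a median of −0.19 and 67.5% of rows below 0 in the whole table. The 3 most abundant were miR-92a-3p, which is also encoded on an autosome, with −0.31 (limma adjusted p = 0.587), miR-222-3p with −0.98 (limma adjusted p = 0.587) and miR-221-3p with −0.60 (limma adjusted p = 0.587). The list also holds miR-223-3p, which is in the haematopoietic list. The difference between this list and the miR-532 cluster was not tested.

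The nearest group in kind is the X-linked cluster of miR-424, miR-450a, miR-450b, miR-503 and miR-542, of which 3 of 10 rows were tested. Their log2 fold changes were 0.24 for miR-450a-5p, 0.10 for miR-424-5p and −0.42 for miR-542-5p, with limma adjusted p = 0.71, 0.893 and 0.584. Of the 3, only miR-542-5p had groups that did not overlap, with Agt Tg lower, as 10.6% of all 329 rows had. The difference between the 2 clusters was not tested.

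Likeness to miR-532-5p was measured as Pearson's r of the log2 levels over the 6 libraries, for 328 other rows. The other arm of the hairpin, miR-532-3p, had r = 0.947 (Spearman's rho 0.943) and came 7th, and miR-501-3p had r = 0.945 (rho 1) and came 8th. The arms of miR-188 were far less alike, with r = 0.569 for miR-188-5p and −0.295 for miR-188-3p, both limited by values at the floor. The 3 rows of the cluster that were above the floor throughout were thus high and low in much the same libraries.

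Such likeness was not particular to the cluster. The 5 rows outside it with the highest r were miR-30d-5p with 0.990, miR-425-5p with 0.979, miR-15b-5p with 0.966, miR-361-3p with 0.955 and miR-410 with 0.953. Of all 328 rows, 22 had an r over 0.9, and the median r was 0.24. All rows of a library share its total and its makeup, and the TMM factors ran from 0.911 in Agt Tg replicate 2 to 1.10 in Wt replicate 1. The part of these in the likeness was not tested. Without the 2 libraries farthest from the median of miR-532-5p, Wt replicates 1 and 3, r was 0.828 for miR-532-3p and 0.822 for miR-501-3p over 4 libraries. After each genotype's mean was taken off, r was 0.884 for miR-532-3p and 0.985 for miR-501-3p.

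**Figure D4:**
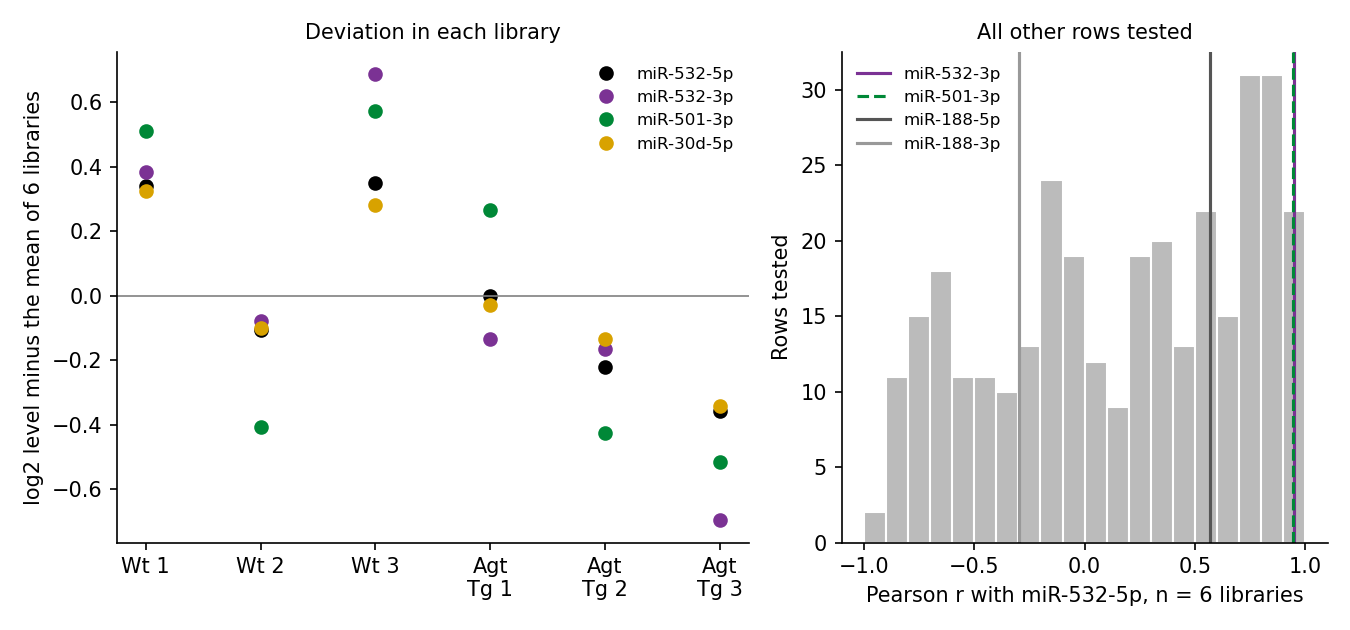
Left panel, log2 level minus the mean of the 6 libraries for miR-532-5p, miR-532-3p, miR-501-3p and the most alike row outside the cluster, miR-30d-5p, in each library. Right panel, number of the other 328 tested rows by Pearson's r with miR-532-5p over 6 libraries, with vertical lines for the 4 other described rows, of which miR-532-3p (0.947) and miR-501-3p (0.945) nearly coincide.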

How the data were processed

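The 6 small RNA libraries, 3 per genotype, were grouped by the sample labels. miR-690, the arrays of gene expression and the RT-qPCR, protein and reporter measurements were not analysed here. Per the methods of the study, the authors used miRBase as the reference for alignment and kept only what fell on a mature miRNA, and the submitters' processing notes name the build mm10. Which release of miRBase was used, and with how many mismatches, is not given in the sources used here. Each deposited value is the log2 of a miRNA's reads, scaled to a library of 10000000 and set to 10 where lower. This was worked out from the values, of which 1924 of 1924 above the floor were whole reads within 0.02 reads, and gave totals of 6387766 to 10562634 reads.

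The planned test, limma (3.58.1, in R 4.3.3) with a variance trend and no term but genotype, was run on the deposited log2 values of the 329 rows above the floor in at least 3 libraries, and was tested on simulated data. Floor values entered as they are, so the size and sign of fold changes of rows near the floor are uncertain. Sums counted floor values as 0. The balance of arms was compared by exact permutation tests and single libraries were given exact Poisson 95% intervals, with Python 3.11.15 and scipy 1.17.1, and figures were drawn with matplotlib 3.10.9. Sequences came from RefSeq (GRCm38.p6) and positions from GENCODE M21.

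Rows named outside the cluster were the 5 most alike to its most abundant row, the 3 most abundant of the other X-linked miRNAs with any at an unadjusted p of at most 0.05, the tested rows of the nearest cluster (named after their values were seen), and the most abundant row of each marker list with those at the floor. Of the 28 numbers of the X-linked list, 25 had a mouse gene on the X chromosome in the RefSeq table, and 374a, 424 and 545 had none. The members and lists were chosen with earlier results of these data known. No pair of libraries of 1 genotype agreed within sampling noise.

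The alternatives were log2(CPM + 1), TMM scaling, limma-voom with TMM on the recovered reads, no filter, a mean CPM of at least 10, no variance trend, the replicate number as a block, leaving out each library, and for the sum other denominators and every row of the cluster. The trim in TMM was 30% for log ratios and 5% for levels.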

Additional observations from a re-analysis of the deposited data

How the results depend on the processing

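With all 6 libraries, 0 of the 5 members were at an unadjusted p of at most 0.05 by limma, also on log2(CPM + 1), with TMM scaling, by limma-voom, with no filter, at a mean CPM of at least 10 (which leaves out miR-501-3p and both arms of miR-188) and with no variance trend. Leaving out 1 library gave 0 to 2 members, 2 only without Wt replicate 2 (miR-532-3p and miR-532-5p), where the table had 48 calls, and the cause was not tested. Over the whole table leaving out 1 library gave 16 to 53 calls, 53 without Agt Tg replicate 1, 16 without Wt replicate 1 and 18 without Agt Tg replicate 3, against 30, and a mean CPM of at least 10 gave 15 of 208. The signs of the 5 fold changes, both balances and the summed level held under every alternative run. With 1 library left out, the log2 fold change ran from −0.87 to −0.48 for miR-532-3p, from −0.54 to −0.31 for miR-532-5p, from −0.77 to −0.28 for miR-501-3p, from −0.63 to −0.12 (without Wt replicate 1) for miR-188-5p and from 0.10 (without Agt Tg replicate 3) to 0.59 for miR-188-3p. The balance of miR-532 ran from 0.17 to 0.37 and that of miR-188 from −1.14 to −0.37, and the difference of the log2 summed level from −0.58 to −0.32. With the replicate number as a block, 0 members and 26 rows were called, and the log2 fold change of miR-532-3p was −0.66 (limma unadjusted p = 0.131). Same-numbered libraries correlated at 0.219, −0.184 and −0.209 in their deviations from the genotype means, so the numbers were not taken to pair the mice. Among the 5 described rows, only the arms of miR-188 had values at the floor, which stood for 6.39 to 10.6 reads.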
